A study of Mus musculus with 24 samples.

Results

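The interaction of partial nephrectomy and NaKtide asks, gene by gene, whether nephrectomised mice differed from sham-operated mice by the same amount when their fat carried NaKtide as when it carried only green fluorescent protein (GFP). It was calculated as the log2 difference PNx+NaKtide minus NaKtide, less the log2 difference PNx minus Control. A positive value means that nephrectomised animals stood higher, relative to their own sham group, with NaKtide than without it, and a negative value means the reverse. The genes examined were the 26116 with more than 10 counts summed over all 24 libraries, of 54232 genes in the count table (48.2%), and 16977 of them were protein-coding. RNA was sequenced from adipose tissue of male C57BL6 mice aged 10 weeks per the series description, with 6 animals in each of 4 groups and 1 library per animal. Control (labelled CTR-GFP) was sham operation with GFP, NaKtide (CTR-NaK) was sham operation with NaKtide, PNx (PNX-GFP) was partial nephrectomy with GFP, and PNx+NaKtide (PNX-NaK) was partial nephrectomy with NaKtide. Every animal, controls included, was injected intraperitoneally with 100 µL of lentivirus carrying the adiponectin promoter, which is active in adipocytes. By the methods of the study the NaKtide cassette was linked to GFP, so that GFP was shared by all groups, and the fat was visceral. How many adipocytes took up the virus was not analysed here.

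The Na,K-ATPase pumps sodium out of cells and potassium into them. The pump can also hold the tyrosine kinase Src, and ligands of the pump that accumulate in renal failure can release Src activity, which feeds oxidant production. NaKtide is a peptide taken from the pump that binds Src and holds it inactive. In fat, adipocytes store and release lipid, secrete adipokines such as adiponectin and leptin, and lie among fibroblasts, endothelium and immune cells. A difference that NaKtide makes equally in sham-operated and nephrectomised mice cancels out of the interaction, which keeps only what depends on both.

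Libraries held 679250 to 2979505 counts, and 3 counts, the limit that a count of 0 allows for counting error only, corresponded to 0.739 to 5.91 CPM, counts scaled to the same effective library size. Several libraries stood apart from the others in lists of marker genes, and results that rest on them are given below with and without them. The summed level of 18 adipocyte genes reached 6181 CPM in replicate 6 of NaKtide and 8230.3 CPM in replicate 6 of PNx, against 156 to 1409 CPM in the other 22 libraries. Skeletal muscle genes summed to 6657 CPM in NaKtide replicate 6 and to 13.8 to 119 CPM elsewhere. Genes of the epididymis, which in male mice adjoins visceral fat, ranged from 1493 to 3239 CPM in 19 libraries. The 5 below that range were replicate 6 of NaKtide with 25.9 CPM, and replicates 1, 2, 3 and 6 of PNx with 45.6, 348, 779 and 152 CPM. Adipoq, the defining adipocyte marker, had at least 3 counts in every library, the fewest in PNx+NaKtide replicate 5. Group medians of the adipocyte sum were 643, 693, 280 and 360 CPM in Control, NaKtide, PNx and PNx+NaKtide. Those of the epididymis sum were 2257, 2179, 564 and 2000 CPM. A sum of kidney genes had medians of 4468, 4361, 1971 and 3389 CPM. The median level of its 11 genes was 2.31 CPM, so a minority of them carried the sum, and it does not measure kidney RNA in general. The label of adipose tissue is that of the study, and the share of fat in the samples was not tested. In tissue samples, fewer cells of a type and less RNA per cell cannot be told apart. The kit was stranded, but whether the counting used strand is not stated in the sources used here, so a gene whose exons overlap those of an opposite-strand gene may hold reads of its partner and is named as such.

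**Figure D1:**
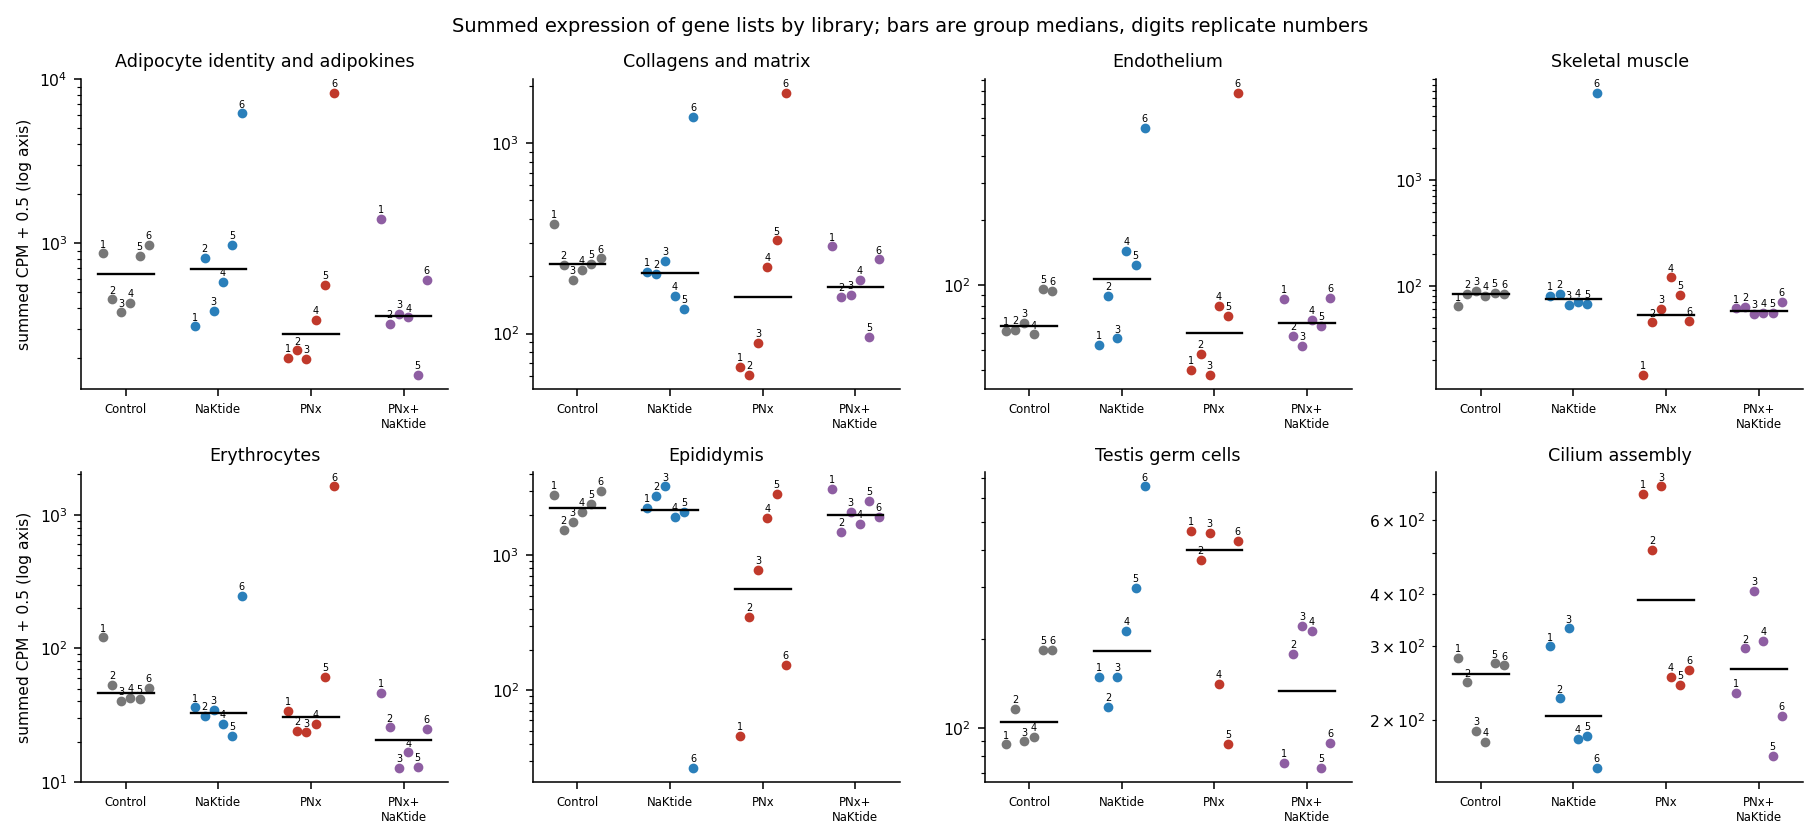
Summed CPM of 8 gene lists in each library (log axis, 0.5 added), by group, with the replicate number at each point and the group median as a bar. NaKtide replicate 6 and PNx replicate 6 stand above all other libraries in the adipocyte, collagen, endothelium and erythrocyte lists, NaKtide replicate 6 alone in skeletal muscle, and both lie with PNx replicates 1, 2 and 3 below all others in the epididymis list.

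No gene of the 26116 (0%) passed the test for the interaction by edgeR's quasi-likelihood test at a Benjamini-Hochberg adjusted p under 0.1, and the smallest adjusted p was 0.377. At an unadjusted p under 0.05, 2421 genes (9.27%) stood out, of which 910 (3.48% of all tested) had a positive and 1511 (5.79%) a negative interaction. These shares are the background against which every count below is to be read. DESeq2 called 94 genes (0.36%), 47 in each direction (0.18%). The voom test of limma with sample weights, which gives less weight to libraries far from their group, called 6593 (25.2%), of which 4139 (15.8%) were positive and 2454 (9.4%) negative. Positive genes made up 37.6% of those at an unadjusted p under 0.05 as tested, and were a minority under the other scalings too, with 15.4% for DESeq2 size factors and 28.4% for library sizes alone. They were the majority with voom (58.2%), with the replicate number as a block (69.1%) and without PNx replicate 6 and NaKtide replicate 6 (52.25%). With limma on the FPKM values that the authors deposited, they made up 54.7% on log2(FPKM + 0.1) and 44.1% on log2(FPKM + 1). The median log2 interaction of all genes was -0.35, with quartiles of -1.26 and 0.47, and it was -0.79 with DESeq2 size factors and -0.63 with library sizes alone, so that single genes and lists are best read relative to it.

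The difference of differences was measured with low precision. Its median standard error over genes was 1.04 on the log2 scale, against 0.73 for PNx against Control and 0.76 for PNx+NaKtide against NaKtide. The median standard error was 1.48 in the 6676 genes with a mean under 1 CPM and 0.57 in the 1483 genes over 100 CPM. A standard error under 0.5 was reached by 34.7% of genes over 100 CPM and by 0.462% of the 11684 genes between 1 and 10 CPM. Among the most expressed class the share at an unadjusted p under 0.05 was 7.55%, and in the least expressed it was 11.7%.

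**Figure D2:**
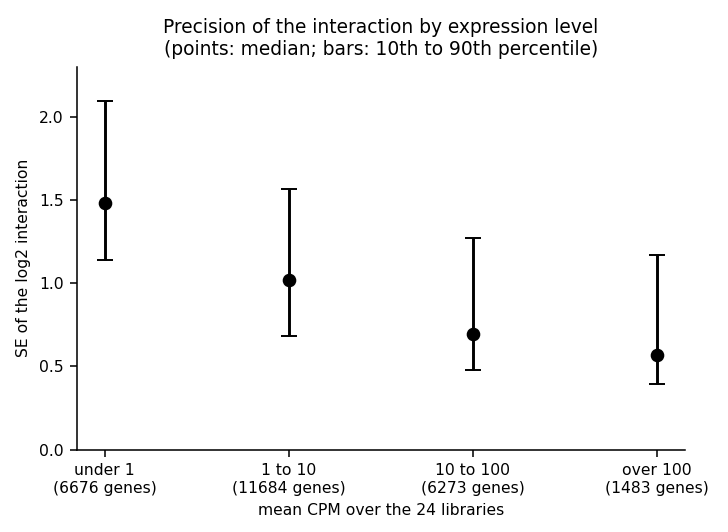
Standard error of the log2 interaction (vertical axis) in 4 classes of mean expression (horizontal axis, CPM over the 24 libraries). Points are medians, from 1.48 under 1 CPM down to 0.57 over 100 CPM, and bars run from the 10th to the 90th percentile of genes.

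The genes at an unadjusted p under 0.05 were mostly genes whose nephrectomy difference had opposite signs in the 2 settings. This held for 822 of the 910 positive genes (90.3%) and for 1396 of the 1511 negative genes (92.4%), against 43.4% of all genes tested. A large interaction favours such a pattern by its construction, so the shares describe the genes and are not a result about them. Of the positive genes, 99.5% lay below Control in PNx, 79.9% had an unadjusted p under 0.05 for PNx against Control and 10.3% for PNx+NaKtide against NaKtide. Of the negative genes, these shares were 56.4% and 22%. In all genes tested they were 25.4% and 4.09%. Both simple differences reached an unadjusted p under 0.05 in 13 positive (1.43%) and 31 negative genes (2.05%), against 221 of all genes tested (0.846%). In no gene did the libraries separate completely in opposite directions in both pairs of groups (0%). Complete separation of PNx from Control alone occurred in 96 genes with all PNx libraries below (0.368%) and in 31 genes with all above (0.119%). PNx+NaKtide separated completely from NaKtide in 8 genes upward (0.0306%) and in 15 genes downward (0.0574%). In 1 gene (0.00383%) all 6 PNx libraries lay below the other 18.

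The 2 directions also differed in what kind of gene they held. Of the positive genes, 40.7% were protein-coding and 33.4% were annotated as antisense or long intergenic RNA, against 65% and 14.5% of all genes tested. Of the negative genes 72.5% were protein-coding and 13% were of those RNA types. Exon overlap with an opposite-strand gene was present in 52.3% of the positive genes, 23.7% of the negative genes and 31.1% of all genes. The libraries that carried the values differed as well. In 528 of the 1511 negative genes (34.9%) the highest of all 24 libraries was PNx replicate 6, and in 280 (18.5%) it was NaKtide replicate 6, against 18.1% and 6.71% of all genes. Without both of these libraries, 45.1% of the negative and 75.1% of the positive genes kept an unadjusted p under 0.05, and the median of all genes was -0.04. In 58.8% of the positive and 0.596% of the negative genes Control replicates 5 and 6 were the lowest libraries of the Control group. The share over all genes was not counted.

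Among protein-coding genes with a mean of at least 5 CPM and without an opposite-strand exon overlap, 104 had a positive interaction at an unadjusted p under 0.05, and the 10 of smallest p are described here together with the 3 of smallest p among 122 genes with an overlap. None passed the adjusted threshold. H2-T24, a non-classical major histocompatibility class I gene (chromosome 17, 36005695 to 36020560, minus strand, GRCm38), had the largest estimate relative to its error among the 10. The lowest, median and highest libraries of H2-T24 read 4.02, 17.3 and 32.5 CPM in Control, 2.42, 4.35 and 8.11 CPM in NaKtide, 1.78, 3.08 and 7.07 CPM in PNx and 4.75, 9.42 and 14.5 CPM in PNx+NaKtide. PNx and NaKtide lay low and Control high, but Control replicates 5 and 6, at 4.94 and 4.02 CPM, lay inside the PNx range. NaKtide replicates 3 to 6 held 4, 2, 3 and 4 counts and PNx replicate 5 held 3, near the limit of 3 counts. The log2 difference was -2.24 (SE 0.52) for PNx against Control and 0.87 (SE 0.52) for PNx+NaKtide against NaKtide, and the interaction was 3.11 (SE 0.73, adjusted p = 0.414).

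Scara3, a scavenger receptor of the class A family linked to protection from oxidants (chromosome 14, 65919394 to 65953935, minus strand), had the largest positive estimate of the 13. For Scara3, the lowest, median and highest values were 25.9, 43.9 and 61.5 CPM in Control, 2.59, 22.9 and 28.5 CPM in NaKtide, 0.246, 4.09 and 28.3 CPM in PNx and 19.1, 28.4 and 151 CPM in PNx+NaKtide. The PNx libraries split, with replicates 4 and 5 at 28.3 and 17.2 CPM, of which only the first lay inside the Control range, and the other 4 at or below 4.15 CPM. PNx+NaKtide replicate 6, at 151 CPM, was the highest library of all. The interaction was 3.54 (SE 0.95, adjusted p = 0.414), and 2.73 without PNx replicates 1, 2 and 3.

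Srxn1 encodes sulfiredoxin, which repairs over-oxidised peroxiredoxins, and is a textbook target of the oxidant-responsive transcription factor NRF2. Per library, Srxn1 stood (lowest, median and highest) at 26.1, 52.8 and 65.3 CPM in Control, 3.88, 18.5 and 36.3 CPM in NaKtide, 4.19, 10.1 and 24.9 CPM in PNx and 13.05, 19.998 and 39.4 CPM in PNx+NaKtide. Control lay highest, with its replicates 5 and 6 at 27.1 and 26.1 CPM just above the highest PNx library, so that Control and PNx did not overlap. The log2 difference was -1.95 (SE 0.48) without NaKtide and 0.14 (SE 0.47) with it, an interaction of 2.08 (SE 0.67, adjusted p = 0.473). Srxn1 was 1 of 2 genes on the list of NRF2 and antioxidant genes printed here for their promoters, since it had the only positive interaction at an unadjusted p under 0.05 on that list, and Cat, which encodes catalase, had a negative one. Sod3, the other negative gene of the list and of smaller p than Cat, had no promoter entry and is not printed. The 250 bases before the transcription start are given from RefSeq (GRCm38.p6), Srxn1 at chr2:152105274-152105523 on the plus strand and Cat at chr2:103485154-103485403 on the minus strand, with matches to the cores TGACNNNGC or TGAGNNNGC of the antioxidant response element, on either strand, in capitals.
Srxn1: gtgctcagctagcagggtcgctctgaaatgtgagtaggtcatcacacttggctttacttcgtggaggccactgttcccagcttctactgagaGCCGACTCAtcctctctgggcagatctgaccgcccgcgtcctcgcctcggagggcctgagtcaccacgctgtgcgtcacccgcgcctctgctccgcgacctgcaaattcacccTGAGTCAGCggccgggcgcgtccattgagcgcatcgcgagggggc
Cat: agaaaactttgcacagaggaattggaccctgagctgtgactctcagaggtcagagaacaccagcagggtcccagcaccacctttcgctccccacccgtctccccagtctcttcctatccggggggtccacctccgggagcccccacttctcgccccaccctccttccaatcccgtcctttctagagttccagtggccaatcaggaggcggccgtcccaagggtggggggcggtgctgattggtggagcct
The Srxn1 promoter held 2 matches, both of the form TGAGNNNGC, and the Cat promoter held none. One or the other form occurs in 23% of all 32851 promoters of this length (10.2% for TGACNNNGC and 14.4% for TGAGNNNGC), and in 7 of the 23 promoters of the list (30.4%), which belong to the 17 of its genes that have an entry, some with several. The form TGAGNNNGC was added after the Srxn1 sequence had been read.

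Fads2, the delta-6 desaturase of polyunsaturated fatty acid synthesis, stood at 2.36, 6.11 and 14.3 CPM (lowest, median and highest) in PNx and at 12.95, 23.5 and 41.8 CPM in Control. In NaKtide it stood at 7.87, 22.3 and 30.02 CPM and in PNx+NaKtide at 13.3, 20.5 and 34.3 CPM, so that PNx was the low group of the 4, with PNx replicate 5 inside the Control range. Its interaction was 1.88 (SE 0.59, adjusted p = 0.473). Vasn, which encodes the TGF-beta-binding protein vasorin and lies inside the body of Coro7 on the other strand, had an interaction of 2.304 (SE 0.67, adjusted p = 0.469). The other 5 genes without overlap were Dbndd1, Prune2, Clic3 (an intracellular chloride channel protein), Obsl1 (a cytoskeletal adaptor) and Tmem141. Their interactions ran from 1.94 to 2.19 with standard errors of 0.62 to 0.70. Obsl1 was the most expressed of them, with group medians of 160.2, 112, 29.6 and 101 CPM in Control, NaKtide, PNx and PNx+NaKtide.

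Of the genes with an opposite-strand overlap, Asb5 (an ankyrin repeat and SOCS box protein) shares 75 exon bases with Spcs3, Mgme1 (an exonuclease that maintains mitochondrial DNA) shares 206 with Snx5, and Rnd2 (a small GTPase) shares 226 with Vat1. Asb5 had the smallest error relative to its estimate of all 26 named genes. In lowest, median and highest order, Asb5 read 26.5, 75.2 and 88.1 CPM in Control, 13.3, 30.7 and 41.4 CPM in NaKtide, 7.55, 19.3 and 29.8 CPM in PNx and 25.1, 51.7 and 64.9 CPM in PNx+NaKtide. 4 of the Control libraries lay above every PNx library, and Control replicates 5 and 6 lay within the PNx range. The interaction of Asb5 was 2.40 (SE 0.55, adjusted p = 0.414), that of Mgme1 2.41 (SE 0.57, adjusted p = 0.414) and that of Rnd2 1.94 (SE 0.52, adjusted p = 0.423). Mgme1 stood at 3.20, 8.17 and 16.0 CPM in PNx and at 13.6, 25.4 and 35.3 CPM in PNx+NaKtide (lowest, median and highest), which overlap through PNx replicate 5.

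All 13 positive genes had PNx as the lowest of the 4 group means, and in 11 of them Control was the highest. In 12 of the 13, and in 58.8% of all 910 positive genes, Control replicates 5 and 6 were the lowest Control libraries. Each of the 13 kept its sign and an unadjusted p under 0.05 without NaKtide replicate 6, without PNx replicate 6, without both, without PNx replicates 1, 2 and 3, and in each of the 24 fits that left out 1 library. These genes were chosen for their small p, and of all 910 positive genes 353 (38.8%) kept an unadjusted p under 0.05 without PNx replicates 1, 2 and 3. DESeq2 called 6 of them (H2-T24, Scara3, Prune2, Asb5, Mgme1 and Rnd2) and voom called all 13, while edgeR called none under any scaling or filter tried.

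**Figure D3:**
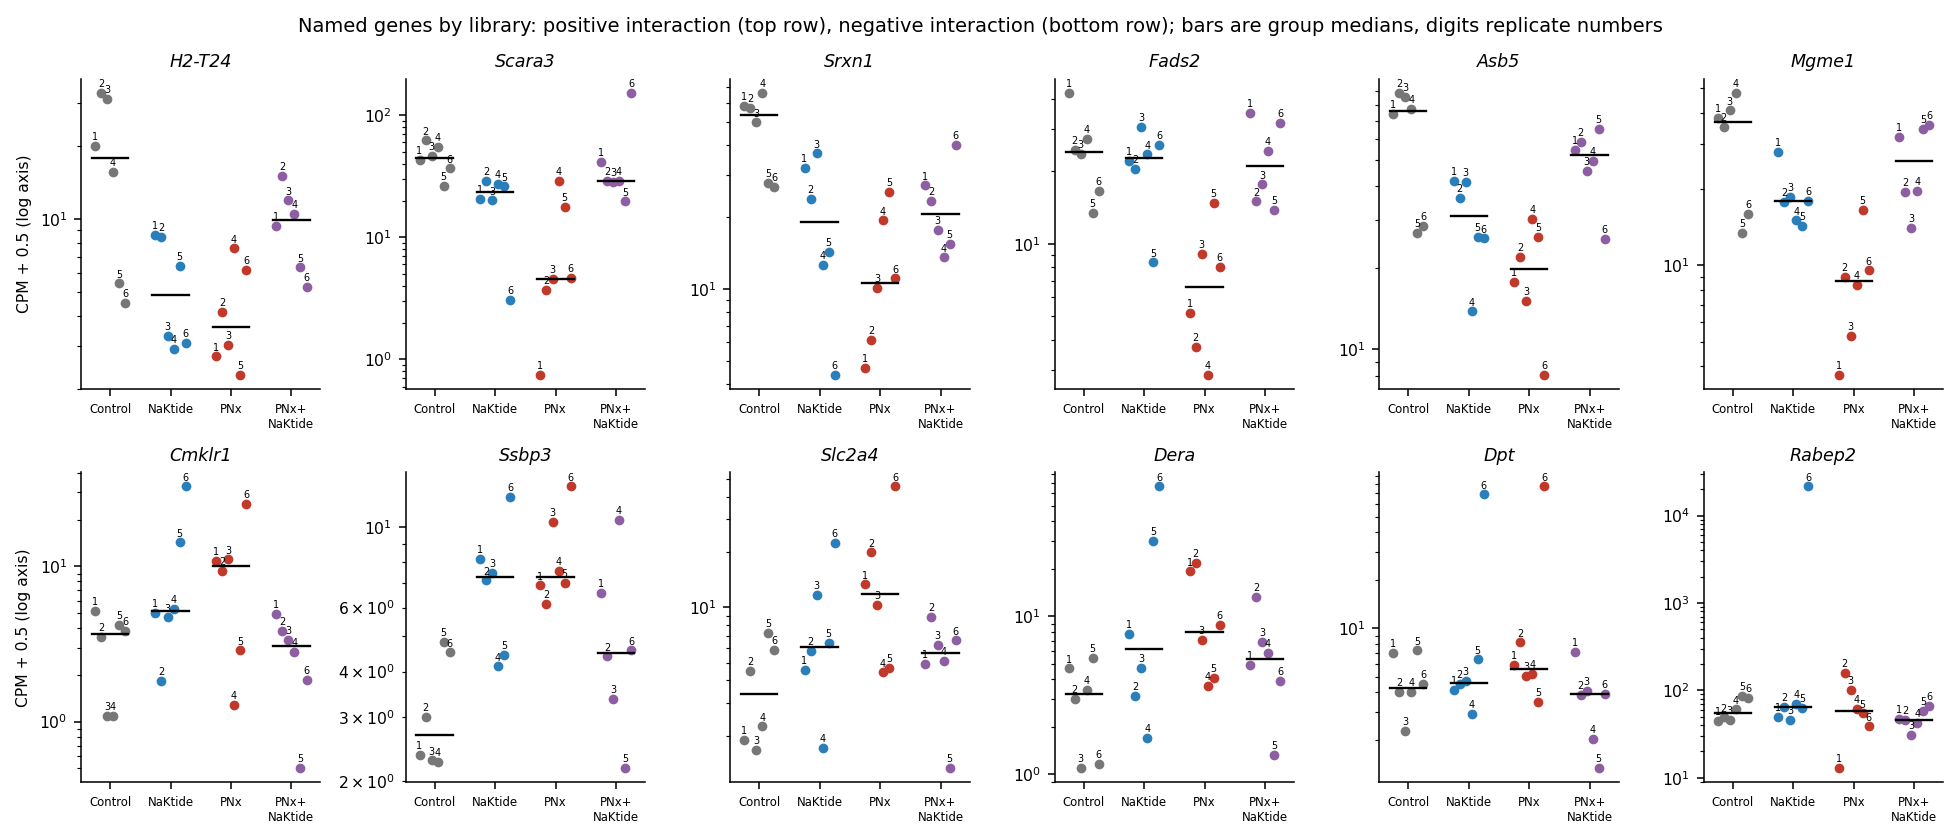
CPM of 6 genes with a positive interaction (top row) and 6 with a negative one (bottom row) in each of the 24 libraries (log axis, 0.5 added), by group, with replicate numbers and the group median as a bar. In the top row PNx lies low and Control replicates 5 and 6 lie below the other Control libraries. In the bottom row the highest points are mostly NaKtide replicate 6 and PNx replicate 6, and Rabep2 reaches 21606 CPM in the former.

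On the negative side, 215 protein-coding genes without overlap and 133 with overlap met the same limits. Cmklr1, the receptor of the adipokine chemerin (chromosome 5, 113612354 to 113650426, minus strand), had the smallest p among those without overlap that are not genes of muscle. The lowest, median and highest libraries of Cmklr1 read 0.583, 3.17 and 4.64 CPM in Control, 1.33, 4.67 and 32.3 CPM in NaKtide, 0.785, 9.62 and 24.9 CPM in PNx and 0, 2.58 and 4.43 CPM in PNx+NaKtide. The highest 4 PNx and 3 NaKtide libraries read above every Control library, and no PNx+NaKtide library did. Of these, NaKtide replicate 4 held 4 counts and read 4.84 CPM, a rank that counting error could alter. The log2 difference of Cmklr1 was 1.85 (SE 0.73) for PNx against Control and -2.02 (SE 0.76) for PNx+NaKtide against NaKtide. The interaction was -3.87 (SE 1.05, adjusted p = 0.423), or -2.39 without PNx replicate 6 and NaKtide replicate 6.

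Slc2a4, the insulin-responsive glucose transporter GLUT4 of fat and muscle, was named by the same rule. For Slc2a4, the lowest, median and highest values were 1.18, 2.88 and 6.79 CPM in Control, 1.21, 5.61 and 22.0 CPM in NaKtide, 3.93, 11.3 and 44.9 CPM in PNx and 0.832, 5.16 and 8.36 CPM in PNx+NaKtide. PNx replicates 4 and 5, at 3.93 and 4.16 CPM, lay inside the Control range, and PNx replicate 6 was the highest library. The interaction was -2.95 (SE 0.90, adjusted p = 0.469), and it was -1.72 without both replicates 6. Ssbp3, a transcriptional co-regulator, had the smallest standard error of the negative genes. Per library, Ssbp3 stood (lowest, median and highest) at 1.75, 2.18 and 4.32 CPM in Control, 3.63, 6.81 and 11.6 CPM in NaKtide, 5.65, 6.80 and 12.5 CPM in PNx and 1.66, 3.99 and 9.98 CPM in PNx+NaKtide. All 6 PNx libraries lay above all 6 Control libraries, while PNx+NaKtide and NaKtide overlapped. Its interaction was -2.09 (SE 0.62, adjusted p = 0.469), and -1.72 without both replicates 6.

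Dera, an aldolase of deoxyribose phosphate, had an interaction of -3.64 (SE 1.07, adjusted p = 0.469) and kept -2.50 without both replicates 6. Me1, the malic enzyme that supplies NADPH to lipogenesis and shares 30 exon bases with A330041J22Rik, had -4.29 (SE 1.17, adjusted p = 0.423) and kept -2.08. Dpt, which encodes the matrix protein dermatopontin, rested more on those libraries. It read 68.5 CPM in NaKtide replicate 6 and 77.0 CPM in PNx replicate 6, against group medians of 3.37 to 5.07 CPM, and its interaction of -4.14 (SE 1.21, adjusted p = 0.469) was -0.47 without them.

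The remaining negative genes, several of them genes of striated muscle, had most of their counts in NaKtide replicate 6. Tnnt3 and Tnni2, subunits of fast-muscle troponin, had 1695 and 475 counts in that library of 1767 and 502 counts over all 24. Myh4, a fast myosin heavy chain, had 2814 of 2892. A second gene model of Aldoa (ENSMUSG00000114515), an aldolase of glycolysis, had 162 of 227 counts there, 19, 25 and 10 in PNx replicates 1, 2 and 3 and 0 in all Control libraries. No fold is given for these 4 genes, since PNx+NaKtide held 3 counts of Tnnt3 and 1 of Myh4 in all, and Control held 2 of Tnni2 and 0 of the Aldoa model. Their adjusted p-values were 0.414 to 0.469. Myh7, the slow and cardiac myosin heavy chain, which overlaps the antisense gene Mhrt, read 145 CPM in NaKtide replicate 6, and its interaction of -6.56 (SE 1.80, adjusted p = 0.469) was -2.79 without it. Rabep2, an effector of endosomal Rab proteins, shares 763 exon bases with Atp2a1, the calcium pump of fast muscle, and read 21606 CPM in NaKtide replicate 6 against 12.3 to 157 CPM in the other 23 libraries. Its interaction of -6.46 was -0.49 without that library. Without NaKtide replicate 6 the unadjusted p by edgeR was 0.028 for the Aldoa model and 0.035 for Myh7. It was over 0.05 for Tnnt3, Tnni2, Myh4 and Rabep2. The part of muscle RNA in these differences was not tested beyond leaving the library out.

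NaKtide replicate 6 was the highest NaKtide library in all 13 negative genes, the highest of all 24 in 9 of them, and PNx replicate 6 the highest of all in the other 4. Without both libraries, 7 of the 13 kept an unadjusted p under 0.05 and all 13 kept their sign. Without PNx replicates 1, 2 and 3, 8 of the 13 kept an unadjusted p under 0.05. These genes too were chosen for their small p. NaKtide replicate 6 was the highest NaKtide library in 14.6% of the positive genes, and the share over all genes was not counted. Of all 1511 negative genes, NaKtide replicate 6 was the highest NaKtide library in 753 (49.8%) and the highest of all 24 in 280 (18.5%). PNx replicate 6 was the highest of all in 528 (34.9%). An unadjusted p under 0.05 was kept by 681 (45.1%) without both libraries and by 755 (50%) without PNx replicates 1, 2 and 3. DESeq2 called 7 of the 13 (Cmklr1, the Aldoa model, Dpt, Dera, Ssbp3, Slc2a4 and Me1), and voom called 7 (the same without Dpt, and with Myh7).

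**Figure D4:**
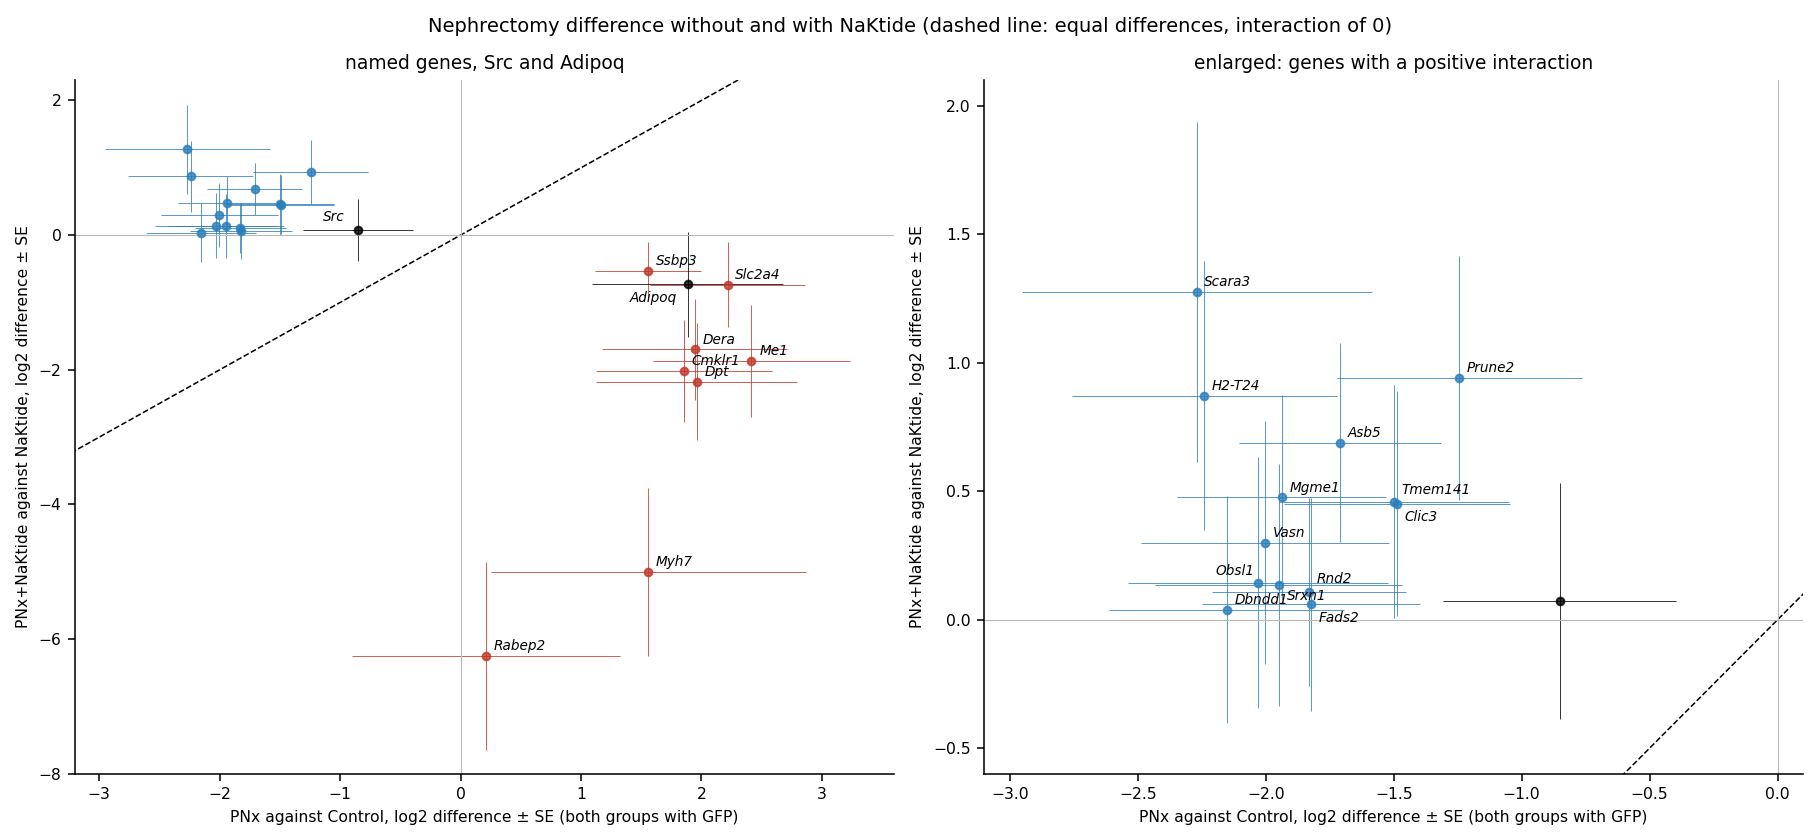
Log2 difference PNx+NaKtide against NaKtide (vertical axis) over PNx against Control (horizontal axis), each ± SE, for the genes described here that the rule named and that had more than 3 counts in every group (blue, positive interaction; red, negative) and for Src and Adipoq (black). The right panel enlarges the positive genes, which lie between -2.27 and -1.24 on the horizontal axis and between 0.04 and 1.27 on the vertical axis. The vertical distance from the dashed line is the interaction.

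Src, the kinase that the peptide binds, was expressed at a low level. In lowest, median and highest order, Src read 4.50, 7.86 and 11.1 CPM in Control, 4.50, 5.98 and 11.9 CPM in NaKtide, 1.51, 2.92 and 10.7 CPM in PNx and 4.16, 6.73 and 12.2 CPM in PNx+NaKtide. All 4 groups overlapped, and the PNx median was the lowest of the 4. The interaction of Src was 0.92 (SE 0.64, adjusted p = 0.638), with a 95% interval of -0.34 to 2.19. This interval spans both no interaction and a shift of over 2 on the log2 scale.

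Of 14 genes of Na,K-ATPase subunits and their FXYD regulators, 1 had a positive and 3 a negative interaction at an unadjusted p under 0.05, and the list median was -0.69, or -0.15 without both replicates 6. The positive gene was Fxyd4 with 2.49 (SE 1.15, adjusted p = 0.527), at no more than 4.46 CPM in any library. Atp1b2, a beta subunit of the pump, had 35 counts over all 24 libraries, with 1 in Control, and no fold is given for it.

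The list of Src signalling held 26 genes, of which 0 had a positive and 3 a negative interaction at an unadjusted p under 0.05, with a median of -0.34 beside -0.35 for all genes, and of 0.11 without both replicates 6. Cav1, the caveolin that holds Src and the pump in caveolae, had its highest libraries in replicate 6 of NaKtide and of PNx. The lowest, median and highest libraries of Cav1 read 3.50, 9.67 and 18.1 CPM in Control, 2.42, 6.46 and 119.6 CPM in NaKtide, 2.27, 4.77 and 269 CPM in PNx and 1.66, 6.31 and 34.9 CPM in PNx+NaKtide. Its interaction was -3.31 (SE 1.57, adjusted p = 0.534), and 2.26 without both libraries, a reversal of sign.

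Of the process lists, that of adipocyte genes had the lowest median in the interaction. Of 18 genes of adipocyte identity and adipokines, 11 had a negative and 0 a positive interaction at an unadjusted p under 0.05, and the median was -3.097. Of 18 genes of lipolysis and lipogenesis, 9 were negative and 0 positive, with a median of -2.11. Both medians stayed negative under each scaling. Without PNx replicate 6 and NaKtide replicate 6 both turned positive, at 1.502 and 0.43, beside -0.04 for all genes, and 7 and 2 members then had an unadjusted p under 0.05. Without PNx replicate 6 alone 1 and 2 members did. Without PNx replicates 1, 2 and 3 the medians were -4.06 and -2.83. The sign of the list medians in the interaction turned on 2 of the 24 libraries.

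Adipoq, which encodes adiponectin and whose promoter drove the transgene, had an interaction of -2.62 (SE 1.11, adjusted p = 0.509). For Adipoq, the lowest, median and highest values were 6.42, 33.8 and 56.2 CPM in Control, 13.3, 25.4 and 166 CPM in NaKtide, 5.50, 91.8 and 345 CPM in PNx and 2.50, 33.1 and 49.0 CPM in PNx+NaKtide. The PNx libraries differed among themselves, with replicates 1, 2 and 3 at 95.1, 141 and 88.6 CPM, replicates 4 and 5 at 5.50 and 13.1 CPM, and replicate 6 at 345 CPM. The interaction was -0.86 without both replicates 6 and -2.70 without PNx replicates 1, 2 and 3. The levels of Adipoq and of the summed list did not run together, since PNx replicates 1 to 3 were above the Control range for Adipoq and lowest of the PNx group for the sum over the list (the sum was 195 to 221 CPM there).

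Lep, which encodes leptin, read 105 and 128 CPM in the replicates 6 of NaKtide and PNx, but 0.493, 0 and 1.01 CPM in PNx replicates 1, 2 and 3. Its interaction of -4.86 (SE 1.59, adjusted p = 0.475) was -0.36 without the pair, below the median of the adipocyte list. Pparg, the master transcription factor of adipocytes, had -4.86 (SE 1.72, adjusted p = 0.491) and 0.28 without the pair, and Rbp4, the retinol-binding adipokine, had -3.88 (SE 1.57, adjusted p = 0.496) and 0.90, also below that median. Among lipid enzymes, the triglyceride lipase Pnpla2 had -2.80 (SE 0.94, adjusted p = 0.488), its co-activator Abhd5 -1.97 (SE 0.81, adjusted p = 0.497) and the hormone-sensitive lipase Lipe -2.75 (SE 1.01, adjusted p = 0.492). Without both libraries these 3 values were -0.54, -1.14 and -0.22, all below the median of their list. Pnpla2 stood at 8.28, 18.6 and 32.0 CPM in Control and 7.49, 17.4 and 35.4 CPM in PNx+NaKtide (lowest, median and highest), and at 149 and 234 CPM in the 2 libraries.

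**Figure D5:**
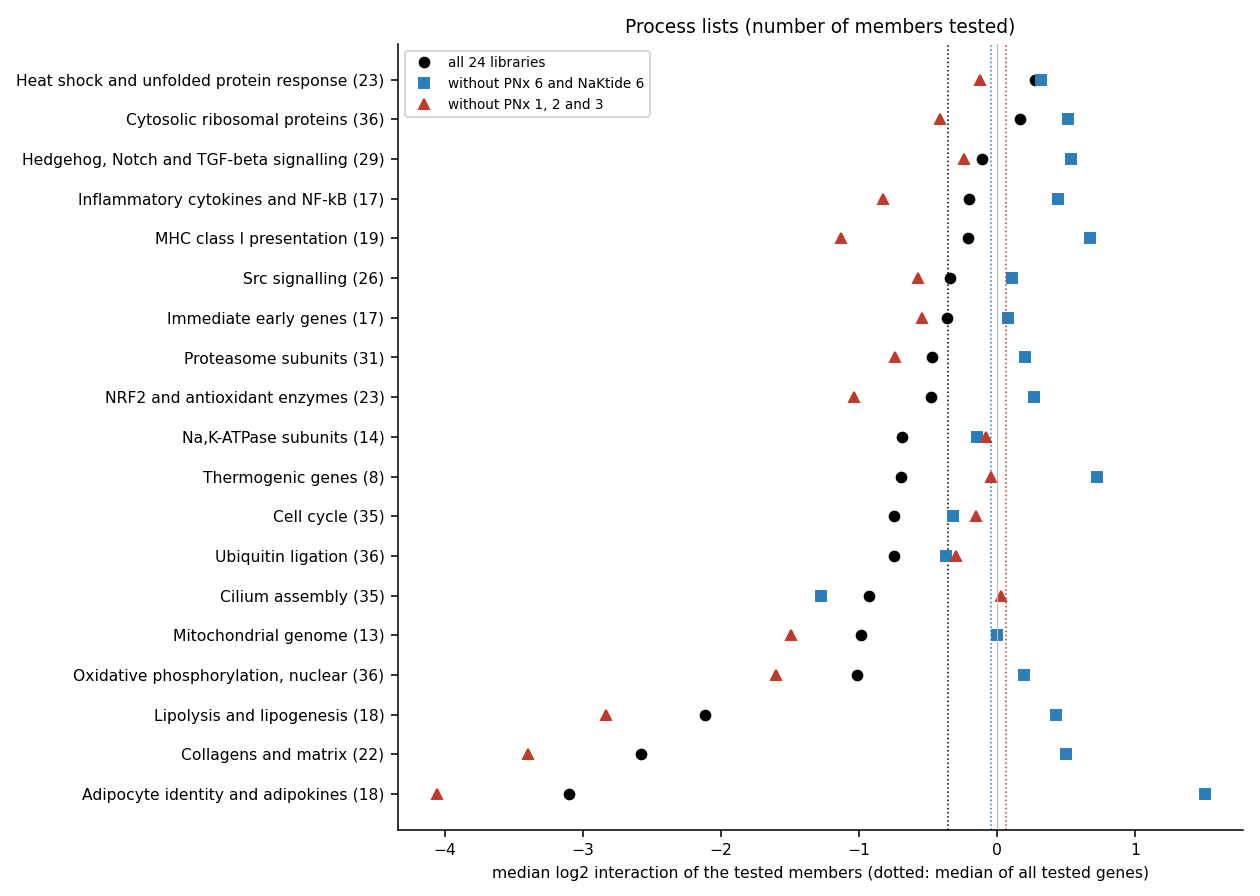
Median log2 interaction of each process list (horizontal axis; number of members tested in parentheses) with all 24 libraries (black circles), without PNx replicate 6 and NaKtide replicate 6 (blue squares) and without PNx replicates 1, 2 and 3 (red triangles). Dotted lines mark the median of all tested genes in the same fit, -0.35, -0.04 and 0.07. The adipocyte list moves from -3.097 to 1.502 without both replicates 6, and the cilium list from -0.93 to 0.03 without PNx replicates 1, 2 and 3.

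Tissue lists that moved with the same libraries had the same form. Of 22 collagen and matrix genes 9 were negative and 0 positive at an unadjusted p under 0.05 (median -2.58, -2.52 with members that had a group at 0 set to their floor, and 0.50 without both replicates 6). Of 12 endothelial markers 6 were negative and 0 positive (median -3.08, and 0.52 without the pair). Of 8 erythrocyte genes 5 were negative and 0 positive (median -4.31, or -3.27 with the member that had a group at 0 set to its floor of 3 counts per group, and 0.64 without the pair). Of 14 skeletal muscle genes 11 were negative and 0 positive, with a fitted median of -6.09 that was -0.11 without NaKtide replicate 6, and 0 members then had an unadjusted p under 0.05. Erythrocyte genes summed to 1629 CPM in replicate 6 of PNx, 245 CPM in that of NaKtide and 12.1 to 120.2 CPM elsewhere. Lox, the collagen cross-linking enzyme, was the collagen-list gene of smallest p, with 49 counts in all and 0 in every PNx+NaKtide library, so that no fold is given.

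With all libraries, the lists that bear on oxidants and energy supply lay near or below the median of all genes. Without both replicates 6 they lay near or above it. Of 23 NRF2 and antioxidant genes 1 was positive (Srxn1) and 2 negative at an unadjusted p under 0.05, with a median of -0.48, or 0.26 without both replicates 6. The negative genes were Sod3, the extracellular superoxide dismutase, with -3.61 (SE 1.37, adjusted p = 0.492), and Cat, with -2.91 (SE 1.37, adjusted p = 0.528). Sod3 read 70.2 CPM in replicate 6 of PNx, 43.3 CPM in that of NaKtide and at most 5.71 CPM in the other 22 libraries, and Cat read 113 and 74.997 CPM in these 2 libraries. Without them both genes changed sign, Sod3 to 1.24 and Cat to 1.22, whereas Srxn1 was 1.83. Of 36 nuclear genes of oxidative phosphorylation 1 was positive and 4 negative, with a median of -1.01 and of 0.19 without the pair. Cox5a, a cytochrome c oxidase subunit, had the smallest p of that list, at -2.06 (SE 0.67, adjusted p = 0.473), and -1.29 without the pair. All 13 mRNAs of the mitochondrial genome had a negative estimate, 1 of them, mt-Atp8 with -1.85 (SE 0.84, adjusted p = 0.52), at an unadjusted p under 0.05. Their median was -0.99, and 0.000412 without the pair. Without PNx replicates 1, 2 and 3 the medians of the antioxidant, nuclear and mitochondrial lists were -1.04, -1.60 and -1.49, beside 0.07 for all genes. In that fit 7, 20 and 8 members had an unadjusted p under 0.05, against 13.9% of all genes.

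Inflammatory and antigen presentation genes had list medians that changed sign without both replicates 6, but lay above the median of all genes in these 2 fits. Less that median, they were 0.15 and 0.14 with all libraries, and 0.48 and 0.71 without both replicates 6. Without PNx replicates 1, 2 and 3 they lay below it, at -0.83 and -1.13 beside 0.07 for all genes. In that fit 7 and 8 members had an unadjusted p under 0.05, against 13.9% of all genes. Of 17 cytokine and NF-kB genes 2 were positive and 2 negative at an unadjusted p under 0.05, with a median of -0.20, or 0.44 without both replicates 6. The smallest p was that of Ikbkg, the regulatory subunit of the IkB kinase, at 1.88 (SE 0.68, adjusted p = 0.492). Per library, Ikbkg stood (lowest, median and highest) at 96.4, 269 and 389 CPM in Control, 145, 175 and 301 CPM in NaKtide, 9.36, 46.7 and 162 CPM in PNx and 147, 176 and 234 CPM in PNx+NaKtide. PNx replicates 1, 2 and 3 were the lowest of all libraries, at 9.36, 25.04 and 16.7 CPM, and the interaction was 1.08 without them. Ikbkg shares 418 exon bases with G6pdx on the other strand. Of 19 genes of class I presentation 0 were positive and 2 negative (median -0.21, or 0.67 without the pair). H2-Q4, a non-classical class I gene, had -2.39 (SE 0.98, adjusted p = 0.497), and -0.05 without both replicates 6.

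Few members stood out in the lists of protein turnover, cell division and stress. The proteasome list had 0 positive and 1 negative of 31, the catalytic subunit gene Psmb7 with -1.48 (SE 0.71, adjusted p = 0.535), or -0.68 without both replicates 6 and -0.79 without that of PNx alone, and a median of -0.47, or 0.20 without the pair. The ubiquitin ligation list had 0 positive and 3 negative of 36 (median -0.75), led by the conjugating enzyme Ube2b at -1.89 (SE 0.63, adjusted p = 0.481). The PNx libraries read 3.93, 8.34 and 16.6 CPM for Ube2b (lowest, median and highest) and the Control libraries 0.583, 3.29 and 4.68 CPM. The cell cycle list had 1 positive and 1 negative of 35, the positive gene being Cdk6, a G1 kinase, at 1.49 (SE 0.67, adjusted p = 0.518). The ribosomal list had 0 of 36 and the heat shock list 0 of 23 in either direction. Their medians of 0.17 and 0.27 were -0.06 and -0.01 with DESeq2 size factors, a change of sign, but above the median of all genes under each scaling.

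Of 29 Hedgehog, Notch and TGF-beta genes 0 were positive and 1 negative, Gli2, a Hedgehog transcription factor, at -2.86 (SE 1.12, adjusted p = 0.492), which read 90.5 CPM in NaKtide replicate 6 and was -0.41 without it. Of 17 immediate early genes 0 were positive and 3 negative. The first of these was Klf2, a flow-responsive factor of endothelium, at -3.53 (SE 1.08, adjusted p = 0.469) and -1.22 without both replicates 6. Of 8 thermogenic genes 0 were positive and 1 negative, Cox8b, which had 31 counts in all, 25 of them in NaKtide replicate 6 and 0 in Control, so that no fold is given. The medians of these 3 lists were -0.11, -0.36 and -0.70, and without both replicates 6 they changed sign, to 0.53, 0.08 and 0.72. Less the median of all genes, they were 0.25, -0.01 and -0.34 with all libraries. Without both replicates 6 these relative values were 0.58, 0.12 and 0.76, so the first did not change sign.

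Other list medians depended on PNx replicates 1, 2 and 3, though not all of these lists were highest only there. Of 35 genes of cilium assembly 0 reached an unadjusted p under 0.05, and 31 had a negative estimate (median -0.93, and 0.03 without these 3 libraries). They summed to 692, 509 and 719.6 CPM in PNx replicates 1, 2 and 3 and to 153 to 406 CPM in the other 21 libraries. Genes of testis germ cells, 0 positive and 2 negative of 18, had a median of -1.74 (-1.92 with members that had a group at 0 at their floor) that was 1.81 without them, and genes of spermatids and sperm, 0 positive and 1 negative of 18, had -1.07 and 1.1611. Epididymis genes ran the other way, with 18 of 20 estimates positive, 0 at an unadjusted p under 0.05, and a median of 1.1599 that was 0.47 without the 3 libraries. The same 3 libraries had the lowest sums of mitochondrial mRNAs, 1853, 3120.3 and 2569 CPM against 3716 to 13216 CPM. Genes of RNA quality and nuclear RNA summed to 835, 882 and 568 CPM there, 177, 197 and 553 CPM in PNx replicates 4, 5 and 6, and 207 to 304 CPM in Control. In NaKtide they ranged from 182 to 399 CPM and in PNx+NaKtide from 132 to 633 CPM. The part of these tissues' RNA and of RNA quality in the interaction was not tested. Without the 3 libraries 3616 genes (13.9%) reached an unadjusted p under 0.05, and 0 passed the adjusted threshold in edgeR.

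Of the remaining marker lists, B cell genes had 0 positive and 2 negative of 8 (median -2.38, or -1.99 with 1 member at its floor) and -1.68 without both replicates 6. Macrophage genes had 0 positive and 2 negative of 15, with -1.13 and 1.26e-05 without the pair. Fibroblast progenitor genes had 0 positive and 2 negative of 10, with -1.92 and 0.02. T cell genes had 0 positive and 1 negative of 8 (median -0.36).

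The 2 genes that edgeR called under any alternative with all genes tested were not protein-coding. With the replicate number as a block, 2 genes (0.00766%) passed at an adjusted p of 0.0509, Gm17142, an unprocessed pseudogene, and 4931431C16Rik, an antisense gene, with log2 interactions of 6.90 and 3.30. Gm17142 was also the 1 gene called without PNx replicate 4 (adjusted p = 0.0271). As tested, with all 24 libraries and no block, their log2 interactions were 6.86 and 3.14, with adjusted p-values of 0.377 and 0.414. These genes were named after their values had been seen.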

How the data were processed

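The authors trimmed reads with Trimmomatic (0.38), aligned them to GRCm38 with HISAT2 (2.1.0), counted reads per gene and normalised with DESeq2 (1.20.0), per the methods and the processing notes. The deposited table of raw counts per gene was used for all tests, and the FPKM values that the authors deposited for the same genes served as an alternative, on log2(FPKM + 1) and log2(FPKM + 0.1). Strand setting and annotation release of the counting are not given in the sources used here. Gene symbols and positions came from GENCODE M21 on GRCm38, which matched 54165 genes (99.9%).

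Genes with more than 10 counts in all were fitted with edgeR (4.0.16, in R 4.3.3) by its quasi-likelihood test, with TMM scaling, 1 mean per group and robust dispersion, and Benjamini-Hochberg adjustment over all genes at 0.1. Alternatives used DESeq2 (1.42.0) and limma (3.58.1). The biological coefficient of variation was 71.4%. Scripts were tested on simulated data. Named genes were the protein-coding genes of smallest p with a mean of at least 5 CPM, 10 per direction without and 3 with opposite-strand overlap, and list members at an unadjusted p under 0.05. The comparison, genes and lists were chosen with earlier results of these data known. Labels give 1 animal per library, and intervals from counts cover counting error only. Values of some single genes are not reported here, though the counts over genes and lists include them.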

Additional observations from a re-analysis of the deposited data

Results flagged for a closer look

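In 336 sets of 6 libraries (140 of sums over a gene list and 196 of single genes), 73 had a highest or lowest library whose gap to its neighbour exceeded the 95% critical value of Dixon's ratio for 6 values, 26 of them list sums and 47 single genes. Chance flags about 1 in 20 such groups, and groups of genes that share libraries are not independent. NaKtide replicate 6 accounted for 30 of the 73 and PNx replicate 6 for 19. The ratio was taken on log2(CPM + 1), and the values given below are in CPM. A library far above its group in CPM can stay unflagged on that scale. NaKtide replicate 6, at 6181 CPM in the summed adipocyte genes and 537 CPM in the summed endothelium genes, was not flagged for these 2 lists.

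NaKtide replicate 6 stood apart from the other 5 NaKtide libraries in the summed Na,K-ATPase subunits at 453, lipolysis and lipogenesis at 2743, cytokines and NF-kB at 572, collagens and matrix at 1375, B cells at 189, fibroblast progenitors at 842, skeletal muscle at 6657, erythrocytes at 245 and epididymis at 25.9. It was the lowest library for the epididymis and the highest for the other lists. Among genes it stood apart in Scara3 at 2.59, Obsl1 at 11.6, Tnnt3 at 1096, Myh4 at 1819, Aldoa at 105, Dpt at 68.5, Tnni2 at 307, Rabep2 at 21606, Myh7 at 145, Adipoq at 166 and Atp1b2 at 4.53. The same held for Cav1 at 119.6, Pparg at 25.9, Pnpla2 at 149, Lipe at 250.2, Cox8b at 16.2, Sod3 at 43.3, Cat at 74.997, Ikbkg at 301, Gli2 at 90.5 and Klf2 at 14.2. It was the lowest library for Scara3 and Obsl1, 2 genes with a positive interaction, and the highest for the other genes.

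PNx replicate 6 stood apart from the other 5 PNx libraries in the summed adipocyte genes at 8230.3, lipolysis and lipogenesis at 3041, NRF2 and antioxidant genes at 1596, proteasome subunits at 1116, nuclear oxidative phosphorylation at 2113, endothelium at 784, fibroblast progenitors at 1358, erythrocytes at 1629 and liver at 507. Among genes it stood apart in Dpt at 77.0, Cav1 at 269, Pparg at 51.3, Rbp4 at 57.0 and Cox8b at 1.51. The same held for Sod3 at 70.2, Cat at 113, H2-Q4 at 74.0, Psmb7 at 34.3 and Klf2 at 19.2.

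Control replicate 1 stood apart in the summed macrophages at 357, the summed skeletal muscle at 63.1, the summed erythrocytes at 120.2, the summed kidney at 3206 and Gli2 at 2.32. Control replicate 4 stood apart in Cox5a at 1.17. Control replicate 5 stood apart in Tnni2 at 1.23, Myh7 at 0, Cdk6 at 10.5 and Klf2 at 4.94. Control replicate 6 stood apart in Atp1b2 at 0.669 and Fxyd4 at 0. NaKtide replicate 5 stood apart in Fads2 at 7.87. PNx+NaKtide replicate 1 stood apart in the summed ubiquitin ligation at 709 and H2-Q4 at 16.1. PNx+NaKtide replicate 2 stood apart in Myh4 at 0.557. PNx+NaKtide replicate 3 stood apart in Sod3 at 5.71. PNx+NaKtide replicate 4 stood apart in Clic3 at 19.957. PNx+NaKtide replicate 5 stood apart in the summed Src signalling at 260.3, the summed cell cycle at 2455, Slc2a4 at 0.832 and Me1 at 0.832. PNx+NaKtide replicate 6 stood apart in the summed Hedgehog, Notch and TGF-beta genes at 587 and Scara3 at 151. In this paragraph the values of Cox5a, Tnni2, Myh7, Atp1b2, Fxyd4, Myh4, Slc2a4 and Me1 were 0 to 2 counts, under the limit of 3 counts.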

How the results depend on the processing

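The count of genes that passed the adjusted threshold was 0 as tested and stayed 0 with DESeq2 size factors, library sizes alone, either filter and either FPKM scale, at the stricter threshold of 0.05, without PNx replicates 1, 2 and 3 and without both replicates 6 (NaKtide and PNx). It was 94 with DESeq2 (which gave 9896 genes no adjusted p), 6593 with voom, and 0 to 1 when 1 library was left out, the 1 without PNx replicate 4. Genes at an unadjusted p under 0.05, 2421 as tested, numbered 3734 with DESeq2 size factors, 3163 with DESeq2, 8663 with voom, 1292 with a stricter filter on low counts (12050 genes tested) and 1587 among the 18005 genes without opposite-strand overlap. They numbered 1863 (without NaKtide replicate 6) to 3798 (without PNx replicate 4) when 1 library was left out. The median of all genes, -0.35 as tested, was -0.79 with DESeq2 size factors, -0.87 with DESeq2, -0.63 with library sizes alone, -0.066 with voom, -0.044 without both replicates 6, 0.065 without PNx replicates 1, 2 and 3, and -0.45 to -0.13 with 1 library left out. The cause of these differences was not tested.

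Replicate numbers were not taken to pair the samples, since nothing in the labels ties them. Of 36 same-numbered pairs, 19 had a correlation of deviations over 0.1 (range -0.59 to 0.71). Of the 36, 12 correlated best with their own number among the 6, where chance alone gives 1 in 6. Between NaKtide and PNx 5 of 6 pairs were over 0.1 (0.25 to 0.59). Whether the numbers stand for a shared batch was not tested. With the replicate number as a block 2 genes passed the adjusted threshold, and the median of all genes was -0.031. The log2 interaction of Cav1 was 0.12 with the block.

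Of 46 named genes under up to 35 alternatives each (1599 values), 13 values changed sign, in 8 genes, all with a negative interaction as tested. With voom, Cav1 was 1.45, Lep 0.68, Sod3 0.94, Cat 1.14 and H2-Q4 0.034. Over the fits without 1 or both replicates 6 or any other library, the lowest and highest values were -4.14 and 2.26 for Cav1, -6.26 and 0.28 for Pparg, -4.73 and 0.90 for Rbp4, -3.89 and 1.24 for Sod3, -3.60 and 1.22 for Cat, and -3.13 and 0.26 for Gli2, each highest value without both replicates 6. Without PNx replicate 6 alone, Cav1 was 0.17. Depth limited genes under 1 CPM most, where the median standard error was 1.48.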

Other observations

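Markers of tissues other than fat, blood and muscle were also followed. Of 10 genes of adrenal and Leydig cells 1 was positive and 2 negative at an unadjusted p under 0.05, and their median log2 interaction of -1.32 was 0.84 without PNx replicates 1, 2 and 3. Of 9 mesothelium genes 1 was positive and 1 negative, with a median of -1.33 (-1.15 with 1 member that had a group at 0 at its floor). The median was 0.32 without these 3 libraries. Of 11 liver genes 0 were positive and 3 negative, with a median of -1.88 (-1.76 with 4 members at their floor) and of 0.61 without both replicates 6. Kidney genes, 0 in either direction of 11, had a median of 0.42. Of 4 pancreas genes tested 1 was positive, and the median of 0.13 was -0.15 with 2 members at their floor. The 6 genes of RNA quality and nuclear RNA had 0 in either direction and a median of -0.45.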
